A study of Rattus norvegicus with 17 samples.

Results

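Cdkn1a and 4 further genes that p53 is known to switch on, Mdm2, Ccng1, Btg2 and Bax, were followed across vehicle and 4 doses of the flame retardant mixture isopropylated phenol phosphate (IPP) in rat liver. A gene was measured by the probe sets that carry its symbol alone in the platform annotation, and the one with the highest mean over the 17 arrays stood for it. Of the 5 genes 3 were measured in this way, of 14217 genes in all: Cdkn1a with 2 probe sets, Mdm2 with 3 and Ccng1 with 1. The 1 probe set listed for Bax is shared with another gene's symbol, and no probe set in the table carries Btg2, so neither was analysed here. The animals were male Harlan Sprague-Dawley rats, whose age is not given in the sources used here, and 1 array was run for each animal from pieces of the left liver lobe. Corn oil alone was given by gavage to 5 rats, and IPP in corn oil to 3 rats each at 76.5, 153, 305.5 and 611 mg/kg body weight, once a day for 4 days, with the liver taken on day 5. The hour at which each rat was killed is not given in the sources used here. All groups therefore share the corn oil and the gavage.

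p53 is a transcription factor that is held low by constant degradation and accumulates when DNA is damaged or ribosome assembly fails. Its targets stop the cell cycle, begin cell death, repair DNA and feed back on p53. Cdkn1a encodes p21, an inhibitor of cyclin-dependent kinases that halts cells before S phase and restrains hepatocyte division. Mdm2 encodes the ubiquitin ligase that degrades p53, and Ccng1 encodes cyclin G1, which brings a phosphatase to MDM2. Btg2 encodes an antiproliferative partner of an mRNA deadenylase, and Bax a pore-forming protein of the mitochondrial outer membrane. Cdkn1a is also set by factors other than p53, among them glucocorticoid receptor, FOXO, KLF and C/EBP proteins and, in liver, the clock repressor REV-ERB alpha, which Nr1d1 encodes.

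The 250 bases before the annotated start are shown for the measured genes because p53 responsiveness is the property that unites them. The sequences are from RefSeq (GRCr8), read 5′ to 3′ on the strand of the gene. Cdkn1a lies at chr20:7150682-7150931 on the plus strand, Mdm2 at chr7:55200792-55201041 and Ccng1 at chr10:25684877-25685126, both on the minus strand. Capitals mark matches to the p53 consensus element described after them.
Cdkn1a: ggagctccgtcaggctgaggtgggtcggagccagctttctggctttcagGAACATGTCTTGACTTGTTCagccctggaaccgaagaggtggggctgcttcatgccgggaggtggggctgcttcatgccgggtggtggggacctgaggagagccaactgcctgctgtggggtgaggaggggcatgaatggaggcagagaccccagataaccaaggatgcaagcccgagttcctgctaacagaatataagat
Mdm2: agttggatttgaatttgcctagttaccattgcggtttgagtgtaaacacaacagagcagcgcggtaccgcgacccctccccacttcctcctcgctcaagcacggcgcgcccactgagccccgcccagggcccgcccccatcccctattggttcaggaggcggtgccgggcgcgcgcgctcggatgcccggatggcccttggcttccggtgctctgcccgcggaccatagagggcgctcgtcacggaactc
Ccng1: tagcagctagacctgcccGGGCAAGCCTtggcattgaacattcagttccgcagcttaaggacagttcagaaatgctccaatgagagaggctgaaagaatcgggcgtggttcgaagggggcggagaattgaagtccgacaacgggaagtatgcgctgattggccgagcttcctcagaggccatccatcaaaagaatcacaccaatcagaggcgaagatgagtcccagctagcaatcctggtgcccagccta

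The p53 element is 2 copies of a 10-base unit, and the unit reads the same on both strands. In the Cdkn1a window a full element, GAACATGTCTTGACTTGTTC, begins 201 bases before the start, with 0 mismatches in its first 10 bases and 1 in its last 10. A full element without a gap, with the 4 central bases of each unit intact and at most 2 mismatches, was found in 0.176% of 33469 windows of this length (59 of them). Neither Mdm2 nor Ccng1 held one in its window, and sequence after the start or further upstream was not searched. Ccng1 held 1 single unit without a mismatch, as did 6.64% of all windows. AGGTCA, the core that REV-ERB and ROR proteins bind, was searched on both strands. It was absent from all 3 windows and present in 14.1% of all. GGGCGG, the core of the SP1 site, also searched on both strands, occurred 2 times for Mdm2, 1 time for Ccng1 and 0 times for Cdkn1a, against at least 1 time in 30.5% of all windows. These are letters in a window, and which start site the liver uses was not measured.

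Arrays had medians of 6.29 to 6.40 on the log2 scale of the deposited values. Hepatocyte markers were bright in every group, with an average over 8 genes of 13.80 to 14.24. Of the other cell types, the mean of 5 endothelial markers ran from 9.41 to 9.61 in vehicle, from 8.88 to 9.20 at 305.5 mg/kg and from 8.88 to 8.99 at 611 mg/kg, but from 9.36 to 9.59 at the smaller doses. The mean of 7 stellate cell markers was 7.79 to 8.18 in vehicle, 7.68 to 7.99 at 76.5 mg/kg, 7.72 to 7.85 at 153 mg/kg, 7.38 to 7.79 at 305.5 mg/kg and 7.44 to 7.59 at 611 mg/kg. That of 5 macrophage markers was 9.52 to 10.06 in vehicle, 9.39 to 9.62 at 305.5 mg/kg and 9.42 to 9.86 at 611 mg/kg. All 5 were lower than vehicle on average at these doses, with median log2 differences of -0.43 and -0.33. At a limma adjusted p under 0.05, 0 of these 5 passed at either dose. At 611 mg/kg the 3 red cell markers averaged 7.98 to 8.69, against 9.26 to 9.46 in vehicle, and the 5 lymphocyte markers 5.52 to 5.60, against 5.66 to 5.86. The part of these cell types in the results below was not tested. The mean of 3 neutrophil markers, of 5 listed, was 7.74 in 76.5 mg/kg rat 3 and at most 6.64 on the other arrays. Of these 3 markers 2 had a mean under log2 6. Their differences from vehicle at 76.5 mg/kg ran from -0.05 (Ly6g6c) to 0.95 (S100a9), so the 3 did not all rise. On the array of 611 mg/kg rat 2 the 3′ minus 5′ difference of the GAPDH control probe sets, a sign of RNA quality, was 2.89, against 0.93 to 1.56 on the other arrays. These arrays bear on the results for 76.5 and 611 mg/kg below. The arrays of 611 mg/kg rat 2, 76.5 mg/kg rat 3 and 76.5 mg/kg rat 2 had the lowest median correlations with the other arrays. These were 0.984, 0.986 and 0.987, against 0.991 to 0.993. They are the 3 arrays that stood apart in the alternatives below, and without them only rat 1 is left at 76.5 mg/kg.

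Cdkn1a fell at every dose, narrowly so at 76.5 mg/kg, and it was already 5.90-fold lower at 153 mg/kg. In vehicle the 5 rats measured 10.95, 11.33, 10.92, 11.49 and 10.16 (log2 signal, mean 10.97 ± 0.51, SD, n = 5). The rats at 76.5 mg/kg measured 8.64, 8.21 and 10.49 (mean 9.11 ± 1.21, SD, n = 3). Thus 2 of these rats lay well under the vehicle range and rat 3 lay inside it. At 153 mg/kg the values were 8.47, 8.06 and 8.70 (mean 8.41 ± 0.32), at 305.5 mg/kg 8.23, 8.34 and 8.24 (mean 8.27 ± 0.06) and at 611 mg/kg 8.55, 8.47 and 8.34 (mean 8.45 ± 0.10, SD, n = 3 each). All 9 rats of the 3 larger doses lay under every vehicle rat, as 4.42%, 7.34% and 7.13% of all genes did at 153, 305.5 and 611 mg/kg.

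**Figure D1:**
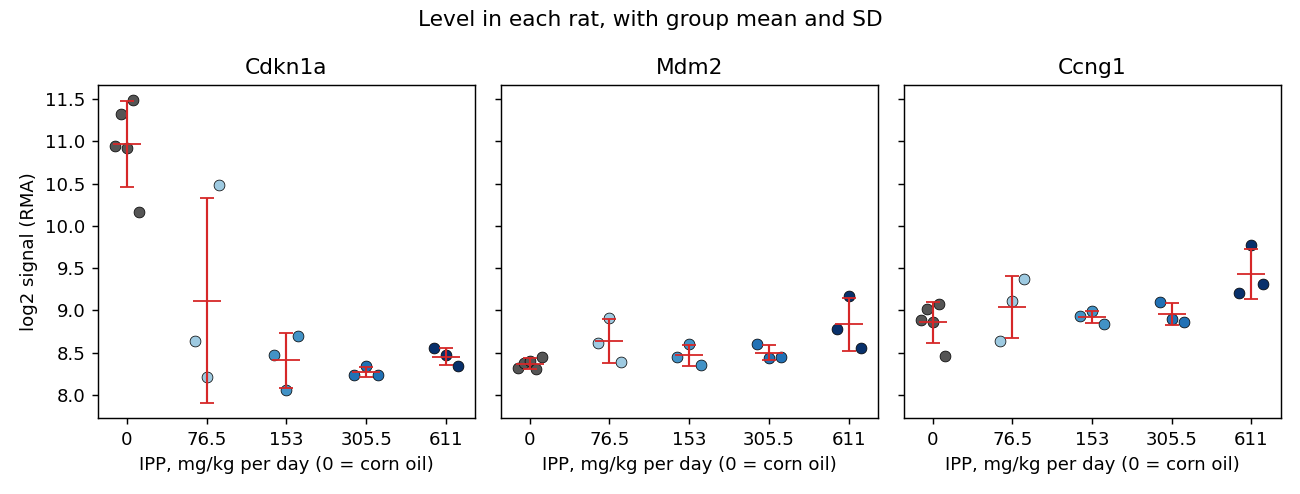
Log2 signal (vertical axis) of Cdkn1a, Mdm2 and Ccng1 in each of 17 rats by daily dose of IPP in mg/kg (0 is corn oil); red marks are the group mean and SD, and levels are to be compared within a gene only. Cdkn1a was between 8.06 and 8.70 in 11 of the 12 treated rats and 10.49 in 76.5 mg/kg rat 3, inside the vehicle range of 10.16 to 11.49.

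Differences are given in log2 with their SE, from limma fitted to the 17 arrays together, and a call is an adjusted p under 0.05. Cdkn1a fell by 2.56 ± 0.37 at 153 mg/kg (5.90-fold lower, adjusted p = 0.00213). It fell by 2.70 ± 0.37 at 305.5 mg/kg (6.49-fold lower, adjusted p = 0.000738) and by 2.52 ± 0.37 at 611 mg/kg (5.73-fold lower, adjusted p = 0.000696). At 76.5 mg/kg it fell by 1.86 ± 0.37 (3.62-fold lower, adjusted p = 0.0384). That call was narrow: it was lost in 22 of 31 alternative analyses, among them without 76.5 mg/kg rat 1 (adjusted p = 0.0958), without rat 2 (adjusted p = 0.196) and without vehicle rat 1, 2, 3 or 4 (adjusted p from 0.0780 to 0.111), and without any 1 rat of the 3 larger doses (0.0518 to 0.0608). Without rat 3, the rat with the high mean of 3 neutrophil markers, the difference was -2.55. The part of neutrophils in the Cdkn1a level of that rat was not tested. Of all genes tested, 0.267%, 0.746%, 2.22% and 7.46% were called at the 4 doses in rising order, and 0.127%, 0.338%, 1.47% and 2.42% were called lower. By size the fall of Cdkn1a ranked 4, 3, 4 and 4 among the falls of all 14217 genes. In whole tissue, less RNA per cell and fewer cells that make it cannot be told apart.

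Neighbouring doses were not called apart for Cdkn1a, in comparisons where 0%, 0% and 0.324% of all genes were called (1134, 1338 and 2281 at an unadjusted p under 0.05). From 76.5 to 153 mg/kg the difference was -0.71 ± 0.41 (limma, adjusted p = 0.694), from 153 to 305.5 mg/kg -0.14 ± 0.41 (adjusted p = 0.939) and from 305.5 to 611 mg/kg 0.18 ± 0.41 (adjusted p = 0.852). The slope over the rank of the group, with vehicle as rank 0 and 611 mg/kg as rank 4, was -0.66 ± 0.12 per rank (adjusted p = 0.00202), where 6.74% of all genes were called, 3.96% higher and 2.78% lower. Over the treated rats alone the slope was -0.21 and was not called (adjusted p = 0.591).

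The second Cdkn1a probe set was dimmer, and its differences had the same sign. It measured 6.25, 6.22, 6.17, 6.80 and 6.52 in the vehicle rats, and 5.69, 5.05 and 6.44 at 76.5 mg/kg, where rat 3 was again inside the vehicle range. The 9 rats at the larger doses lay between 5.20 and 5.86, under every vehicle rat. By the brightest probe set, 4.42%, 7.34% and 7.13% of all genes lay so at 153, 305.5 and 611 mg/kg. In a limma fit over all 20826 probe sets with 1 symbol this probe set was called lower at 611 mg/kg (fell by 0.85 ± 0.22, adjusted p = 0.037). The differences of -0.66 ± 0.22, -0.81 ± 0.22 and -0.69 ± 0.22 at 76.5, 153 and 305.5 mg/kg did not pass (adjusted p = 0.317, 0.175 and 0.168).

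Mdm2, the feedback inhibitor of p53, was called lower at no dose and rose slightly at 611 mg/kg. The vehicle rats measured 8.32, 8.38, 8.40, 8.30 and 8.45 (mean 8.37 ± 0.06, SD, n = 5). The values were 8.61, 8.91 and 8.39 at 76.5 mg/kg, 8.45, 8.60 and 8.35 at 153 mg/kg, and 8.60, 8.44 and 8.45 at 305.5 mg/kg, so each of these groups overlapped vehicle. At 611 mg/kg they were 8.78, 9.17 and 8.55, all above the vehicle range, as for 11.5% of all genes. There Mdm2 rose by 0.46 ± 0.13 (1.38-fold, limma adjusted p = 0.0368), where 5.04% of all genes were called higher. The highest value was that of rat 2, the array with the largest GAPDH 3′ minus 5′ difference, and without it the difference was 0.29 (adjusted p = 0.242).

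At the smaller doses the Mdm2 differences were 0.27 ± 0.13, 0.10 ± 0.13 and 0.13 ± 0.13 (adjusted p = 0.476, 0.801 and 0.737). Their 95% intervals, 0.00 to 0.54, -0.17 to 0.37 and -0.14 to 0.40, do not reach the fall of Cdkn1a at those doses. A second Mdm2 probe set rose at 611 mg/kg as well (0.75 ± 0.16, adjusted p = 0.0107 over all probe sets), with 8.60, 9.16 and 8.39 against 7.77 to 8.15 in vehicle. The third, the dimmest, was at -0.04 ± 0.16 (adjusted p = 0.911), so the probe sets of Mdm2 disagreed.

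Ccng1, the cyclin G1 gene, was called lower at no dose and rose at 611 mg/kg. The vehicle rats measured 8.88, 9.02, 8.86, 9.07 and 8.46 (mean 8.86 ± 0.24, SD, n = 5). The values were 8.64, 9.11 and 9.37 at 76.5 mg/kg, 8.93, 8.99 and 8.84 at 153 mg/kg, and 9.10, 8.90 and 8.86 at 305.5 mg/kg, with overlap in each group. At 611 mg/kg they were 9.21, 9.77 and 9.31, above every vehicle rat, as for 11.5% of all genes. Ccng1 rose there by 0.57 ± 0.16 (1.48-fold, limma adjusted p = 0.0422), where 5.04% of all genes were called higher. Rat 2 was again the highest, and without it the difference was 0.40 (adjusted p = 0.252). At 76.5, 153 and 305.5 mg/kg the differences were 0.18 ± 0.16, 0.06 ± 0.16 and 0.10 ± 0.16 (adjusted p = 0.748, 0.915 and 0.858), with 95% intervals of -0.16 to 0.53, -0.28 to 0.40 and -0.25 to 0.44. The intervals again do not reach the fall of Cdkn1a. Of 31 alternatives, 12 did not call the rise of Mdm2 at 611 mg/kg and 17 did not call that of Ccng1. For Mdm2 these included leaving out any 1 vehicle rat or 611 mg/kg rat 1, and for Ccng1 vehicle rat 1, 3 or 5, 611 mg/kg rat 3, any 153 mg/kg rat, or 305.5 mg/kg rat 2 or 3. With the GAPDH difference as a covariate Mdm2 was at 0.36 (adjusted p = 0.0275) and Ccng1 at 0.47 (adjusted p = 0.0647).

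**Figure D2:**
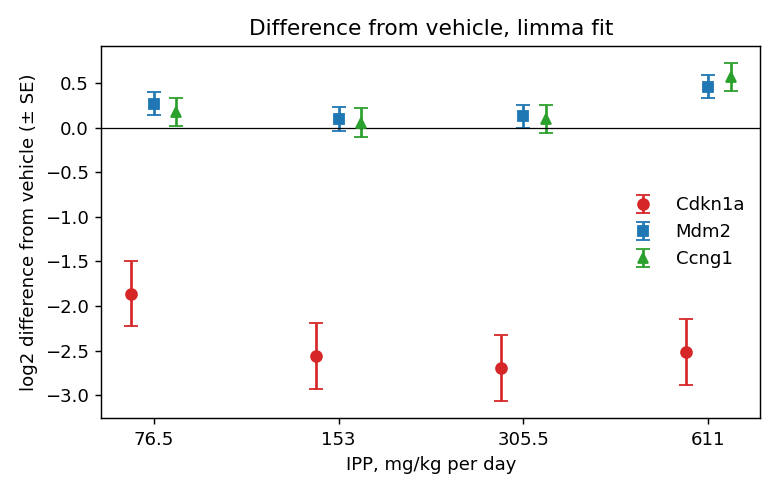
Log2 difference from vehicle (vertical axis) with its SE from the limma fit for Cdkn1a, Mdm2 and Ccng1 at each daily dose of IPP in mg/kg. Cdkn1a lay between -2.70 and -1.86, while Mdm2 and Ccng1 lay between 0.06 and 0.57.

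Whether the other targets shared the fall was tested as the difference between the change of Cdkn1a and that of each other gene within the same arrays. Cdkn1a had been singled out with its fall known, so this is no independent evidence of the fall itself. A gene that stayed level would return the fall of Cdkn1a unchanged, and all 8 comparisons share the Cdkn1a values of the same vehicle rats. Their p-values are therefore not independent, and they bear only on whether the other gene fell as far as Cdkn1a. The change of Cdkn1a minus that of Mdm2 was -2.66, -2.83 and -2.98 on the log2 scale at 153, 305.5 and 611 mg/kg. In each case 3 of 3 treated rats lay below all 5 vehicle rats (two-sided exact permutation p = 0.0357 for each over 56 splits, the smallest that 3 against 5 allow, Benjamini-Hochberg adjusted p = 0.0408 over 8 comparisons). At 76.5 mg/kg it was -2.12, with 2 of 3 rats below vehicle (exact p = 0.0714, adjusted p = 0.0714). Against Ccng1 the differences of changes were -2.04, -2.62, -2.79 and -3.09 in order of dose, with 3 of 3 rats below vehicle at each dose (exact permutation p = 0.0357 and adjusted p = 0.0408 for each). With any 1 rat left out, the differences of changes ran from -2.93 to -1.53 at 76.5 mg/kg and from -3.25 to -2.41 at the larger doses.

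Among 32 further p53 targets, 26 had a probe set of their own, and none was called lower at any dose in the limma fit. The list held arrest and repair genes (Gadd45a, Sesn1, Ddb2, Xpc), death genes (Fas, Bbc3, Perp, Apaf1) and regulators of signalling. At 76.5, 153 and 305.5 mg/kg 0 members were called in either direction, beside 0.267%, 0.746% and 2.22% of all genes, so that few or no calls among 26 genes would match the background. At an unadjusted p under 0.05 were 3, 4 and 6 members, beside 10.7%, 11.9% and 13.5% of all genes, and the medians were -0.06, 0.09 and -0.02. Over all genes the median differences were 0.009, 0.007 and 0.007. At 611 mg/kg 2 were called higher and 0 lower, with a median of 0.11 against -0.003 over all genes. By share that is 2 of 26, beside 7.46% of all genes called at this dose.

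The members called at 611 mg/kg were Fas and Sulf2. Fas, a death receptor gene, measured 6.77, 6.94, 7.13, 6.76 and 6.91 in vehicle and 7.63, 7.54 and 7.65 at 611 mg/kg, above every vehicle rat, as for 11.5% of all genes. It rose by 0.71 ± 0.15 (1.63-fold, limma adjusted p = 0.0104) and had a slope of 0.16 ± 0.04 per rank (adjusted p = 0.00990). The call of Fas at 611 mg/kg was lost in 2 of 30 alternatives, the replicate block (limma adjusted p = 0.0774) and a threshold of 0.01. Its slope was not called over the treated rats alone (0.10, adjusted p = 0.561) or with the replicate block (0.14, adjusted p = 0.0856). Sulf2, which encodes a heparan sulfate sulfatase, rose by 0.46 ± 0.13 (adjusted p = 0.0426), with 9.35, 9.56 and 9.46 against 8.82 to 9.16 in vehicle, and was not called in 18 of 30 alternatives, including without 611 mg/kg rat 1, 2 or 3 and without vehicle rat 1, 2, 3 or 4. Bbc3, which encodes the death activator PUMA and is named here after its values were seen, was called higher by slope (0.16 ± 0.04 per rank, adjusted p = 0.0202) but not at 611 mg/kg (0.64 ± 0.19, adjusted p = 0.0508).

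The lowest member at each dose was Phlda3, named after its values were seen, as were Gadd45a and Sesn1. Phlda3, which encodes an inhibitor of AKT signalling, was at -0.43, -0.44, -0.71 and -0.51 (adjusted p = 0.643, 0.563, 0.253 and 0.282). In alternative analyses Phlda3 was called lower in some: when only vehicle and the dose were fitted at 153, 305.5 and 611 mg/kg, and at 305.5 mg/kg also without 76.5 mg/kg rat 3 and without the 3 arrays that stood apart. With array weights the nuclease gene Aen was called lower at 76.5 mg/kg. Gadd45a, a stress sensor in growth arrest, was at 0.26, -0.09, 0.12 and -0.16 (adjusted p = 0.828, 0.936, 0.920 and 0.794). Sesn1, a stress-induced inhibitor of mTORC1, was at -0.05, 0.33, 0.10 and 0.42 (adjusted p = 0.960, 0.555, 0.893 and 0.222).

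**Figure D3:**
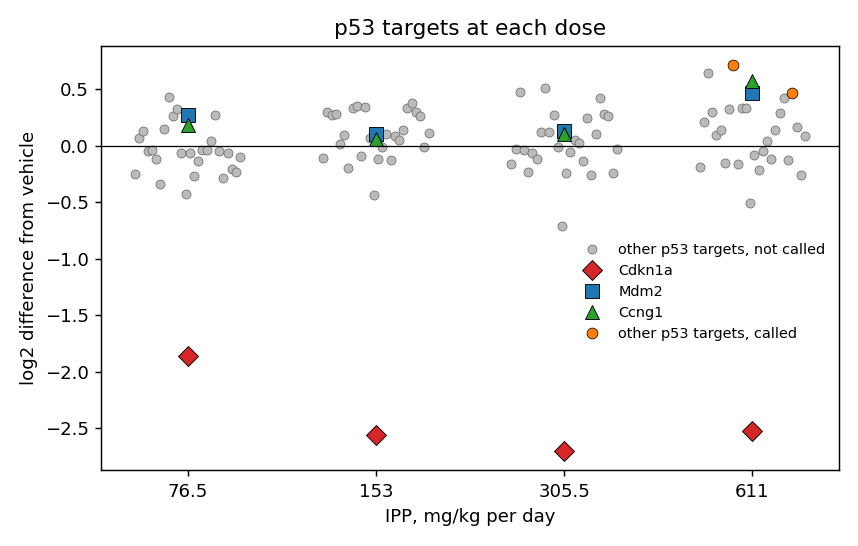
Log2 difference from vehicle (vertical axis) of 26 further p53 targets (circles; orange where called by limma) with Cdkn1a, Mdm2 and Ccng1 at each daily dose of IPP in mg/kg. The circles lay between -0.71 and 0.71, and Cdkn1a lay between -2.70 and -1.86.

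Genes that set p53 activity gave no call. Of 18 listed, 14 were measured. In the limma fit 0 of 14 were called at any dose, beside 0.267%, 0.746%, 2.22% and 7.46% of all genes in order of dose. At an unadjusted p under 0.05 were 2, 1, 0 and 1 of them, beside 10.7%, 11.9%, 13.5% and 24.2% of all genes. Few or no calls among 14 genes would match the background. Of 30 alternatives, 1 called 1 of them, at 76.5 mg/kg. Mdm4, the partner of MDM2 that masks p53, was at -0.18, -0.02, -0.16 and -0.12 (adjusted p = 0.691, 0.974, 0.677 and 0.606). Chek1, a kinase of the DNA damage checkpoint, was highest of the list at 76.5 mg/kg (0.36 ± 0.13, adjusted p = 0.331), and Atr, the kinase above it, at 611 mg/kg (0.30 ± 0.13, adjusted p = 0.159).

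No other inhibitor of cyclin-dependent kinases on the list was called lower, and Cdkn1b and Cdkn2c rose at 611 mg/kg. The list held 20 genes of the inhibitors and the G1 to S machinery, all measured. Of these 5 were called higher and 0 lower at 611 mg/kg (limma, median 0.08), beside 5.04% of all genes called higher and 2.42% called lower. At the smaller doses 0 were called in either direction, beside 0.267%, 0.746% and 2.22% of all genes. There 2, 2 and 1 had an unadjusted p under 0.05, beside 10.7%, 11.9% and 13.5% of all genes. Few or no lower calls among 20 genes would match the background. Cdkn1b, which encodes p27, measured 10.53, 10.71 and 10.68 against 10.27 to 10.35 in vehicle (rose by 0.32 ± 0.08, adjusted p = 0.0219). Cdkn2c, which encodes p18, measured 9.12, 9.05 and 8.94 against 8.22 to 8.49 (rose by 0.63 ± 0.11, adjusted p = 0.00403). With the mean over probe sets in place of the brightest one, Cdkn1b was at 0.19 (adjusted p = 0.194) and Cdkn2c at 0.16 (adjusted p = 0.288). Cdkn1b was also not called without 611 mg/kg rat 2 (adjusted p = 0.105) or rat 3 (adjusted p = 0.0749).

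The other called members of that list were genes of dividing cells. Ccna2, the cyclin of S phase and G2, measured 7.54, 6.49 and 6.63 at 611 mg/kg against 4.13 to 5.48 in vehicle (rose by 1.83 ± 0.27, adjusted p = 0.000836). Cdk1, the mitotic kinase, rose by 1.13 ± 0.28 (adjusted p = 0.0200), with rat 2 at 6.94 inside the vehicle range of 5.81 to 7.08, and was at 0.72 without rat 1 (adjusted p = 0.0877). Rbl1, which encodes the pocket protein p107, rose by 0.55 ± 0.16 (adjusted p = 0.0481) and was not called in 21 of 29 alternatives, including without 611 mg/kg rat 1 or 2 and without vehicle rat 1, 3, 4 or 5. At the smaller doses, where Cdkn1a was already low, Ccna2 was at -0.34, -0.12 and -0.39 (adjusted p = 0.718, 0.901 and 0.597) and Cdk1 at -0.18, -0.29 and -0.28 (adjusted p = 0.879, 0.714 and 0.727). The cyclin gene Ccnd1 was at -0.51, 0.01, -0.48 and -0.09 (adjusted p = 0.771, 0.998, 0.740 and 0.929).

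Relatives of the genes that were not measured, and of cyclin G1, were followed for context. Of 7 genes of the BTG and TOB and cyclin G families, 3 were called higher and 0 lower at 611 mg/kg, beside 5.04% of all genes called higher there. At the smaller doses 0 were called, beside 0.267%, 0.746% and 2.22% of all genes. There 0, 4 and 2 had an unadjusted p under 0.05, as did 10.7%, 11.9% and 13.5% of all genes. Tob1, an antiproliferative relative of Btg2, measured 10.81, 11.39 and 11.25 against 9.64 to 10.25 in vehicle (rose by 1.06 ± 0.25, limma adjusted p = 0.0156). Ccng2, which encodes the second cyclin G, measured 8.86, 9.06 and 9.17 against 7.65 to 8.41 (rose by 0.84 ± 0.22, adjusted p = 0.0300), and Ccni, which encodes cyclin I, rose by 0.32 ± 0.09 (adjusted p = 0.0378). Without 611 mg/kg rat 2 these 3 were at 0.94, 0.83 and 0.26 and none was called (adjusted p = 0.0921, 0.108 and 0.193), nor was any without rat 3 (adjusted p = 0.0555, 0.0974 and 0.0800). Of 13 relatives of Bax in the BCL2 family 1 was called at 611 mg/kg, a share near the 7.46% of all genes called there. It was the death activator gene Bcl2l11, which encodes BIM (rose by 1.34 ± 0.34, adjusted p = 0.0235). Its 611 mg/kg rats measured 8.65, 9.19 and 9.36 against 7.49 to 8.01 in vehicle. With the mean over its probe sets it was at 0.42 (adjusted p = 0.0713), and the call was also lost without 611 mg/kg rat 2 or 3.

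Among 22 factors known to act on Cdkn1a, of which 20 were measured, Nr1d1 was called at every dose. It measured 5.61 to 6.27 in vehicle and 8.21 to 9.49 in all 12 treated rats, with differences of 2.87, 3.32, 3.32 and 3.28 (± 0.22 each, limma adjusted p at most 3.17e-06). In 76.5 mg/kg rat 3, whose Cdkn1a was inside the vehicle range, Nr1d1 was 8.21, the lowest of the treated rats but above every vehicle rat. Egr1, an immediate early factor gene, was called lower at 305.5 mg/kg (fell by 2.99 ± 0.52, adjusted p = 0.00466) and at 611 mg/kg (fell by 2.35 ± 0.52, adjusted p = 0.0115), where the call was lost without rat 2 (adjusted p = 0.0798). Nr3c1, which encodes the glucocorticoid receptor, rose at 611 mg/kg (0.52 ± 0.10, adjusted p = 0.00702), and with the mean over its probe sets was at 0.27 (adjusted p = 0.0828). Foxo1 was at -0.11, -0.10, -0.01 and -0.15 (adjusted p = 0.726, 0.716, 0.984 and 0.338) and Myc, a repressor of Cdkn1a, at -0.45, -0.72, -0.71 and -0.47 (adjusted p = 0.664, 0.375, 0.333 and 0.373). The part of these factors in the level of Cdkn1a was not tested.

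None of the 5 genes whose level most resembled that of Cdkn1a over the 17 arrays was among the fixed p53 targets. With 5 places among 10524 genes, a list of 26 would seldom hold one, so their absence says little about p53 targets. Likeness was Pearson's r over 10524 genes with a mean of at least 6, given as a description because vehicle and treated rats form separate clouds. The highest were Sdc4 (a heparan sulfate proteoglycan, r = 0.94), Lgalsl (0.93), Lpin1 (a phosphatidate phosphatase, 0.92), Tp53inp2 (an autophagy and thyroid receptor cofactor, 0.91) and Syne1 (a nuclear envelope protein, 0.90). With group means removed they were 0.79, 0.75, 0.83, 0.86 and 0.31. The most opposite were Hsd17b2 (a steroid dehydrogenase, r = -0.97), Oaf (-0.97), the clock genes Dbp and Nr1d1 (-0.95 each) and Hells (a chromatin remodeller, -0.94), at -0.92, -0.83, -0.76, -0.76 and -0.87 with group means removed. Mdm2 ranked 9514 with r = -0.56, and was at -0.56 with group means removed too. Ccng1 ranked 6177 with r = -0.15, but was at 0.58 with group means removed. In vehicle both genes put the rats in the same order, lowest in rat 5 (Cdkn1a 10.16, Ccng1 8.46). At 76.5 mg/kg both were highest in rat 3 (10.49 and 9.37). At 153 mg/kg the order was opposite, and rat 2 had the lowest Cdkn1a (8.06) and the highest Ccng1 (8.99). The value of 0.58 therefore does not describe every group.

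In 76.5 mg/kg rat 3, 6 of the 10 most alike or most opposite genes lay inside the vehicle range, as Cdkn1a did and as did 43.3% of the 10525 genes with a mean of at least 6, Cdkn1a included. The 10 genes were picked by their likeness to Cdkn1a on arrays that include this rat, so their values there are a description of that choice. Hsd17b2, for example, was 10.41 there, against 10.05 to 10.92 in vehicle and 12.28 to 13.15 in the other 11 treated rats. Sdc4 was 12.80, against 12.57 to 13.08 and 11.50 to 12.18. Nr1d1, Dbp, Syne1 and Tp53inp2 lay outside the vehicle range, the last only just (11.81 against 11.80). Sdc4 fell at 153 mg/kg by 0.86 ± 0.19 (limma adjusted p = 0.0424), at 305.5 mg/kg by 1.01 ± 0.19 (adjusted p = 0.00802) and at 611 mg/kg by 0.95 ± 0.19 (adjusted p = 0.00686), with no call at 76.5 mg/kg (-0.62 ± 0.19, adjusted p = 0.224).

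**Figure D4:**
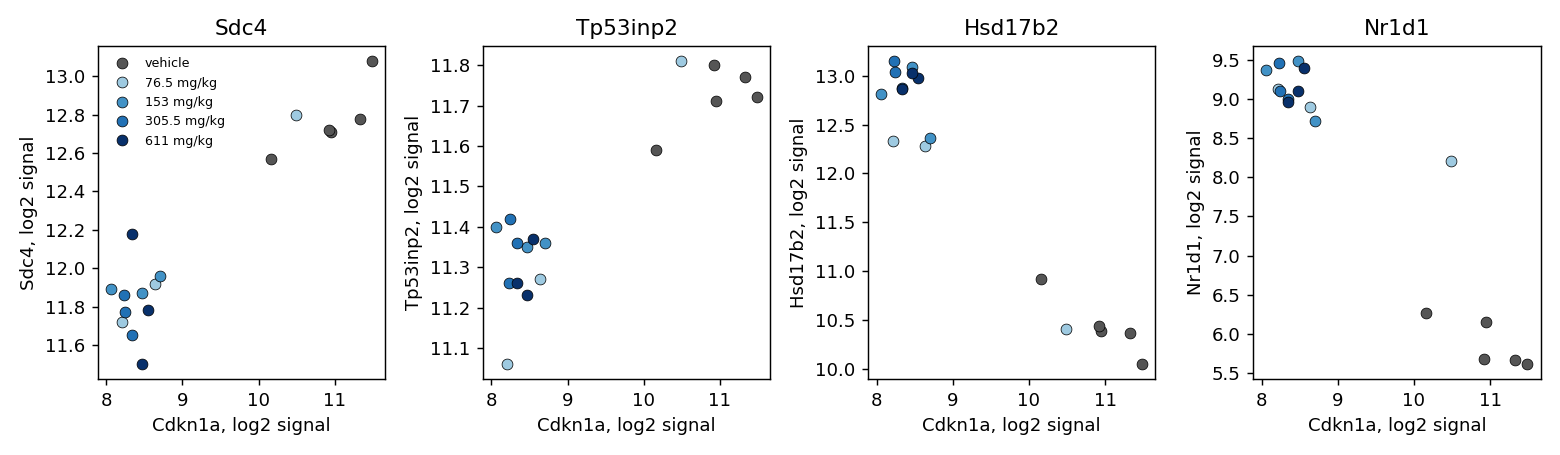
Log2 signal of Sdc4, Tp53inp2, Hsd17b2 and Nr1d1 (vertical axes) against that of Cdkn1a (horizontal axis), 1 point per rat coloured by group. The 76.5 mg/kg rat at a Cdkn1a signal of 10.49 lay in the vehicle range for Sdc4 and Hsd17b2 and apart from it for Nr1d1 (8.21 against 5.61 to 6.27); the genes were picked by likeness on arrays that include this rat.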

How the data were processed

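Total liver RNA from 17 rats was labelled and hybridised to 1 rat oligonucleotide array per animal. The authors deposited log2 values from RMA, per the submitters' processing notes, a method that subtracts background, matches distributions across arrays and summarises probes. Its software is not given in the sources used here. Groups came from the sample titles. The platform annotation, of 2016, gave 1 symbol to 20826 of 31099 probe sets, several to 436 and none to 9780, and 57 controls were left out. The brightest probe set stood for each of 14217 genes (a choice for 4525), with no filter on signal, and 14167 gene IDs matched the RefSeq table.

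The tests used limma (version 3.58.1, R version 4.3.3) with the 5 groups as a factor and eBayes with trend, and Benjamini-Hochberg adjustment over all genes in each comparison. An adjusted p under 0.05 is a call. The doses share their vehicle rats. On simulated data for 611 mg/kg over 14217 genes, log2 changes of 0.5, 1 and 2 were recovered in 60.7%, 96.1% and 99.7% of cases, with 4.66% false calls. There 200 genes changed, and the noise was normal and independent between genes and arrays. No simulated array had poor RNA quality, so the rates hold for that setting and may differ for the real arrays. Arrays limit precision by their number. The members and lists were chosen with earlier results of these data known. Named beyond the members were list genes called at any dose, up to 6 per list, and the 5 genes most and least like Cdkn1a; others are marked or stand as list examples chosen after their values were seen. Alternatives changed the probe set rule, filter, normalization, weights, eBayes setting, threshold, block, covariate or slope, or left out rats.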

Additional observations from a re-analysis of the deposited data

How the results depend on the processing

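The falls of Cdkn1a at 153, 305.5 and 611 mg/kg kept their direction and their call in all 31 alternatives each, with ranges of -2.76 to -1.69, -2.90 to -1.70 and -2.72 to -1.68. At 76.5 mg/kg the fall was not called with the mean over probe sets (-1.26), with all probe sets tested, robust eBayes, a fit of only vehicle and that dose, a threshold of 0.01 or exact permutation of the gene alone (-1.86 each), or the replicate block (-1.95), and without single rats it ran from -2.55 to -1.40, called in 2 of 17 cases. The slope over treated rats alone was -0.21 and not called. The rise of Mdm2 at 611 mg/kg was not called with repeated quantile normalization (0.36), array weights (0.30), the replicate block (0.47), a threshold of 0.01 (0.46) or without the 3 arrays that stood apart (0.29), and ran from 0.29 to 0.61 without single rats. That of Ccng1 was not called with all probe sets tested or a threshold of 0.01 (0.57 each), median centring (0.52), repeated quantile normalization (0.48), the replicate block (0.51), the GAPDH covariate (0.47) or without the 3 arrays (0.40), and ran from 0.40 to 0.68 without single rats. Small uncalled differences of Ccng1 changed sign in some alternatives. At 76.5 mg/kg this was with array weights (-0.14) and without the 3 arrays (-0.21), where only rat 1 is left at that dose. At 153 mg/kg it was with repeated quantile normalization (-0.02) and the replicate block (0.00). Without single rats the differences of Ccng1 ran from -0.04 to 0.11 at 153 mg/kg and from 0.00 to 0.15 at 305.5 mg/kg. The slope of Mdm2 ran from 0.05 to 0.09 without single rats and was called without 76.5 mg/kg rat 2. The causes were not tested. The labels do not say what a replicate number marks. Between rats of the same number, correlations of deviations ran from -0.26 to 0.40 over 30 pairs (median 0.01, 10 of them above 0.1). These values do not settle whether the numbers pair the rats. Calls over all genes ranged from 4 to 696 at 76.5 mg/kg (38 as reported), 29 to 398 at 153 (106), 120 to 1114 at 305.5 (316) and 330 to 1884 at 611 (1060), each highest with array weights, and with the replicate block were 15, 49, 198 and 387. Among the 26 further p53 targets, calls ranged from 0 to 5 at 76.5, 0 to 1 at 153, 0 to 3 at 305.5 and 0 to 5 at 611 mg/kg, with at most 1 lower in any.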
